A study of Drosophila melanogaster with 164 samples.

Results

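The circadian clock output loop genes vri (vrille), Pdp1 (PAR-domain protein 1), cwo (clockwork orange) and dbt (doubletime, listed in the reference as dco for discs overgrown) were described across the larvae and adults of 41 inbred lines of Drosophila melanogaster. The 4 genes were taken by name, by a rule that sets no threshold on a measured value, and all 4 are among the 7414 genes of the deposited count table. RNA from whole bodies was sequenced from each DGRP line (Drosophila Genetic Reference Panel, inbred from an outbred population) at both stages, with 2 biological replicates per line and stage. The lines carried no treatment or transgene. They were chosen to be free of inversions and to span the range of starvation resistance.

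Larvae were full-grown, feeding third-instar animals of both sexes, taken when the first wandering larva appeared in a vial. Adults had emerged within 48 hours and had then matured for 4 days. Animals were kept at 25 degrees C under 12 hours of light and 12 of darkness, and each sample pooled 2 to 31 animals from a pair of vials, with a median of 20 larvae or 17 adults. Samples were frozen at random times in a daily window that the submitters give as running from 10am to 12am. The hour of each library is not among the labels, so the part that the hour has in any value below was not tested.

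In the fly clock, the transcription factors Clock and Cycle activate period and timeless, whose proteins return to the nucleus and block their own activation. The output loop genes join this core at another level. Clock and Cycle also activate vri and Pdp1, which encode basic leucine zipper proteins that compete at the Clock gene, Vri as a repressor and Pdp1 as an activator, and cwo, which encodes a basic helix-loop-helix Orange repressor of Clock and Cycle targets. The dbt gene encodes a casein kinase 1 that phosphorylates Period and promotes its decay. In heads, vri, Pdp1 and cwo transcripts are known to cycle over the day, and dbt transcript is known to stay nearly flat. Outside the clock, vri acts in hair, wing and tracheal growth, Pdp1 in muscle and fat body, and dbt in the growth of imaginal discs.

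On the BDGP6 (dm6) assembly, vri (FBgn0016076) lies on the plus strand at 2L:5288944-5311223 and has 4739 bp of merged exons. Pdp1 (FBgn0016694) lies on the minus strand at 3L:7811458-7867369 and has 12138 bp of merged exons. On the right arm of chromosome 3, cwo (FBgn0259938) lies on the plus strand at 3R:10388258-10400752 with 5092 bp of exons, and dbt (FBgn0002413) on the minus strand at 3R:31054085-31061210 with 4783 bp. All 4 are protein-coding genes. One noncoding gene, lncRNA:CR45730, lies within vri on the opposite strand, and its exons do not overlap those of vri.

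The 80 larval libraries used held 2407244 to 26429404 counts in the table's genes, and the 82 adult libraries 2748964 to 20421026. The larval columns of DGRP787 replicate 1 and DGRP491 replicate 2 were identical and both were left out, so these lines have 1 larval library each. Their shared counts had r = 0.704 with the adults of DGRP491 and 0.0574 with those of DGRP787, over the 241 genes named next. Replicate 2 of the larvae of DGRP882, DGRP897 and DGRP911 matched the adults of another of these 3 lines better than those of its own line, over 241 genes that differ stably between lines. They are called the mismatched libraries below and were kept under their labels. The tests across all genes that use larval libraries were also run without them, and the relations to marker sums were not. Replicate 1 of the larvae of DGRP367 matched the adults of DGRP804 (r = 0.393) better than those of its own line (r = 0.285). It was kept in every larval result and is not counted among the mismatched libraries; vri stood at 46.0 CPM in it and at 97.5 CPM in replicate 2. The labels speak of biological replicates from separate vials, so the spread between the replicates of a line includes that between pools of sibling animals. It also includes differences between library pools. The replicates were in different library pools in every adult line and in every larval pair but that of DGRP59. For lines that hold a mismatched library, the spread may also include a difference between lines.

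All 4 genes were higher in adults than in larvae. Levels are given as CPM, the count of a gene relative to the total of its library, scaled by TMM factors. The stage difference was tested with edgeR's quasi-likelihood test with line as a block, Benjamini-Hochberg adjusted over all 7414 genes. At an adjusted p under 0.05, 44.9% of all genes had their higher level in adults and 47.8% had it in larvae, so a call by itself sets none of the 4 apart. In whole bodies, fewer cells of a type and less RNA per cell cannot be told apart.

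In larvae, vri ran from 20.6 CPM in DGRP235 replicate 1 through a median of 51.3 to 115 CPM in DGRP217 replicate 1. In adults it ran from 72.9 CPM in DGRP801 replicate 2 through a median of 156 to 310 CPM in DGRP783 replicate 2. The stages overlapped at their edges, with 12 of 80 larval libraries above the lowest adult and 17 of 82 adult libraries below the highest larva. The larval mean was 54.7 ± 18.1 CPM (SD, n = 80) and the adult mean 155 ± 45.5 CPM (SD, n = 82). The fitted log2 fold change was 1.51 ± 0.07 (SE), a 2.85-fold higher level in adults (adjusted p = 2.1e-45, edgeR), and vri was higher in adults in 41 of 41 lines. By line, the fold ran from 1.49 in DGRP801 to 7.03 in DGRP235, the line with the lowest larval level.

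Pdp1 had the largest stage difference of the 4. Larval values ran from 30.1 CPM in DGRP911 replicate 1 through a median of 78.6 to 168 CPM in DGRP45 replicate 1, and adult values from 114 CPM in DGRP59 replicate 1 through a median of 289 to 688 CPM in DGRP796 replicate 2. The stages overlapped through 1 adult library. That library, DGRP59 replicate 1, lay below the highest larva, 10 of 80 larval libraries lay above it, and the other replicate of that line stood at 362 CPM. The larval mean was 83.4 ± 25.5 CPM (SD, n = 80) and the adult mean 300.5 ± 85.1 CPM (SD, n = 82). The fit put adults 1.86 ± 0.06 log2 units (SE) above larvae, or 3.63-fold (adjusted p = 6.5e-58, edgeR). All 41 lines were higher in adults, from 2.19-fold in DGRP801 to 9.61-fold in DGRP911, a line with a mismatched larval library.

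The 2 other genes moved less. Larval cwo ran from 38.3 CPM in DGRP360 replicate 2 through a median of 57.5 to 87.7 CPM in DGRP142 replicate 1, and adult cwo from 49.3 CPM in DGRP315 replicate 1 through a median of 91.6 to 168 CPM in DGRP911 replicate 1. The stages overlapped widely, with 63 of 80 larval libraries above the lowest adult. The larval mean of 57.5 ± 10.0 CPM (SD, n = 80) compared with an adult mean of 94.3 ± 23.8 CPM (SD, n = 82). The fitted difference was 0.70 ± 0.04 log2 units (SE), or 1.62-fold (adjusted p = 9.7e-32, edgeR). It was higher in adults in 40 of 41 lines, the exception being DGRP59, at 0.910 of its larval level.

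The kinase gene dbt had the smallest difference and the narrowest adult range. Larval values ran from 36.9 CPM in DGRP897 replicate 2, a mismatched library, through a median of 72.3 to 103 CPM in DGRP879 replicate 2. Adult values ran from 69.8 CPM in DGRP882 replicate 1 through a median of 91.96 to 121 CPM in DGRP59 replicate 1. Here 75 of 82 adult libraries lay below the highest larva. The larval mean was 72.9 ± 12.6 CPM (SD, n = 80) and the adult mean 92.02 ± 9.19 CPM (SD, n = 82). The fitted difference was 0.34 ± 0.03 log2 units (SE), or 1.27-fold (adjusted p = 6.8e-19, edgeR), and dbt was higher in adults in 39 of 41 lines.

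Against a 2-fold threshold (edgeR's glmTreat), vri (adjusted p = 7.2e-13) and Pdp1 (adjusted p = 4.0e-28) passed, and cwo and dbt did not. Of all genes, 15% passed this test as higher in adults and 11.7% as higher in larvae, and over all genes the median of this log2 difference was -0.03. Among all genes, the log2 fold change of Pdp1 stood at the 93.9th percentile, vri at the 91.3rd, cwo at the 76.3rd and dbt at the 65.1st. In the stage test without a fold threshold, each of the 4 kept its direction and its call under every alternative. The 12 larval and 7 adult library pools named in the labels had no pool in common. Stage and library pool therefore cannot be told apart, and none of these alternatives addressed pool. The 2-fold test was run in the main setting only. The noncoding RNA of males roX1 had a median of 784 CPM in adult and 230 CPM in larval libraries, so as a covariate it overlaps with stage. With its log2 level in the fit, the log2 fold change was 1.21 for Pdp1, 0.36 for cwo, 1.26 for vri and 0.25 for dbt. Without it, the values were 1.86, 0.70, 1.51 and 0.34. What the covariate took from stage and from other differences in roX1, such as sex composition, cannot be told apart.

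**Figure D1:**
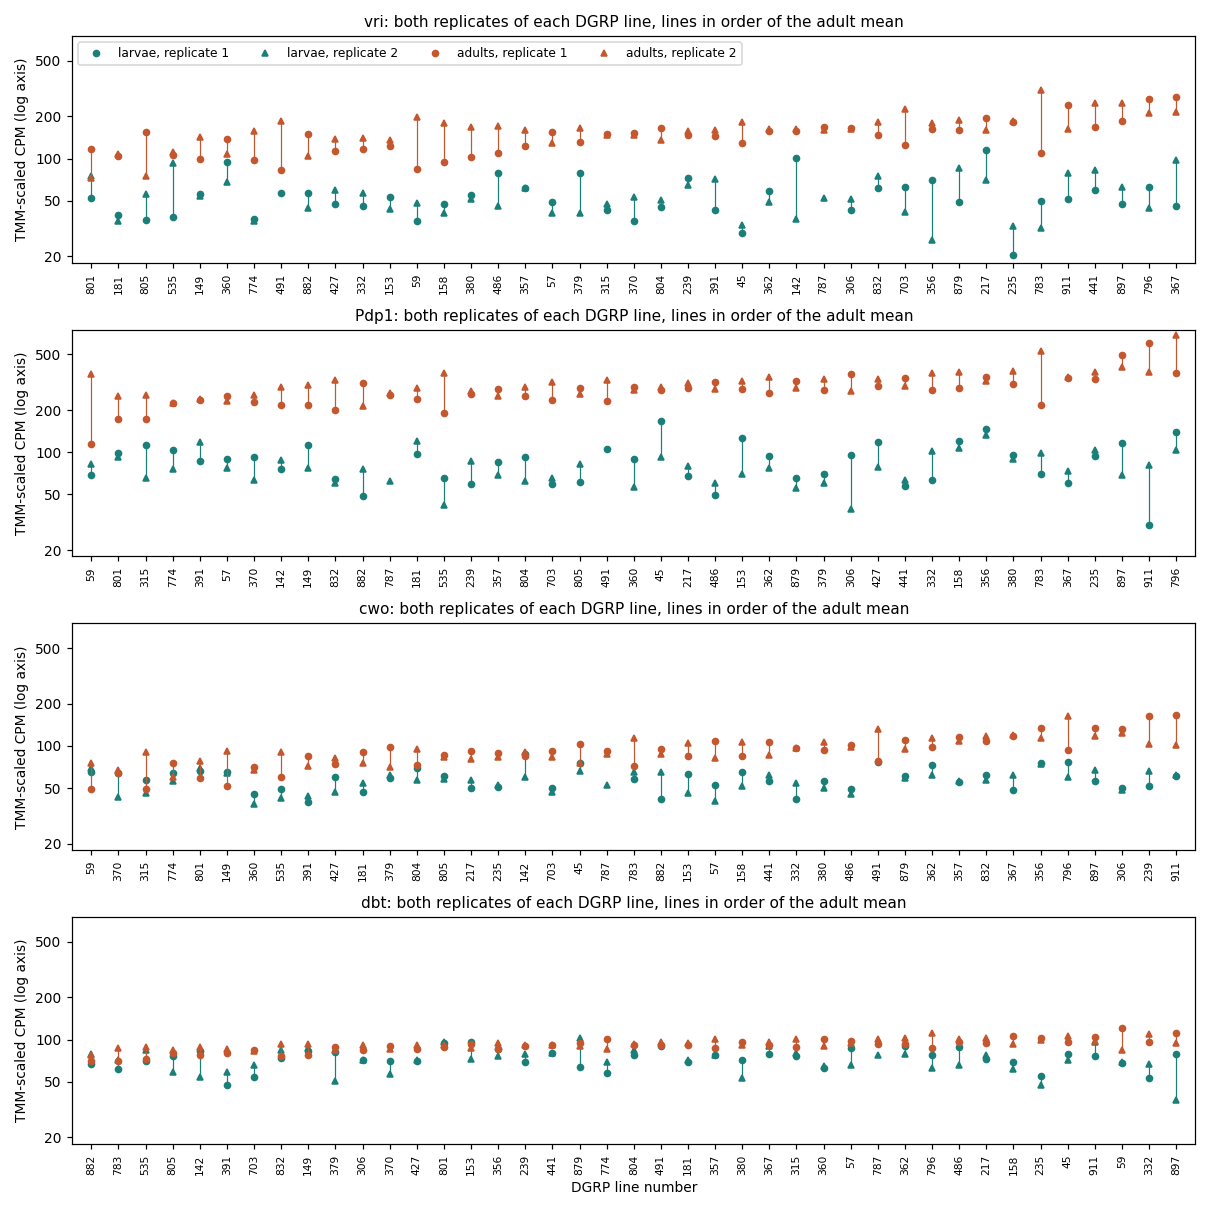
TMM-scaled CPM (log axis) of vri, Pdp1, cwo and dbt in each DGRP line, with lines ordered within each panel by the adult mean; circles are replicate 1, triangles replicate 2, and a bar joins the replicates of a line. Adult Pdp1 points lie above the larval ones of their line in all 41 lines, while dbt points of both stages share one band; DGRP787 and DGRP491 have 1 larval library each.

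Per kilobase of merged exon, the order of the genes' levels differed between the stages. In larvae, dbt was at 15.2 ± 2.64 CPM per kb (SD, n = 80), vri at 11.5 ± 3.81, cwo at 11.3 ± 1.97 and Pdp1 at 6.87 ± 2.10. The means of vri and cwo differed by less than the SD of either. In adults, vri was at 32.7 ± 9.60 CPM per kb (SD, n = 82), Pdp1 at 24.8 ± 7.01, dbt at 19.2 ± 1.92 and cwo at 18.5 ± 4.68. Neighbours in the adult order differed by less than the larger of their SDs. These SDs describe the spread of single libraries and not the error of a mean, and the order was not tested. Pdp1 is read from several promoters, so merged exons overstate the length of any single transcript, and its level per kilobase is a low estimate.

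The rest of the clock was read from 3 gene lists. Of 8 genes of the feedback loops, vri, Pdp1, cwo and cyc (Cycle, the partner of Clock) were measured; per, tim, Clk and cry were not analysed here, since the table holds only genes with at least 11 counts in every library. All 4 measured genes were higher in adults, against 44.9% of all genes, with a median of 1.19 log2 units. The values of vri, Pdp1 and cwo in this count are those given above, so only cyc adds to them. The larval mean of cyc was 15.6 ± 5.199 CPM (SD, n = 80) and its adult mean 27.7 ± 4.55 CPM (SD, n = 82), a difference of 0.87 ± 0.05 log2 units (SE; adjusted p = 2.4e-34, edgeR). The level of cyc also differed between lines in larvae (adjusted p = 5.5e-05, edgeR) and in adults (adjusted p = 6.5e-04, edgeR).

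The kinases, phosphatases and turnover factors that act on Period and Timeless, dbt among them, were measured for 19 of 20 listed genes. Of these, 13 passed with the higher level in adults and 6 in larvae, against 44.9% and 47.8% of all genes. The median difference was 0.56 log2 units. Adults exceeded larvae by 1.00 ± 0.04 log2 units (SE) in sgg, the shaggy kinase that phosphorylates Timeless, and by 1.75 ± 0.06 in nmo, the Nemo kinase. The ubiquitin ligase genes Cul3, at 2.07 ± 0.04, and ctrip (circadian trip), at 1.96 ± 0.05, stood highest in the list, and slmb, the F-box protein that binds phosphorylated Period, was at 0.95 ± 0.02. The genes higher in larvae were CSN5 (-0.82 ± 0.02) and CSN4 (-0.61 ± 0.02), subunits of the COP9 signalosome, the phosphatase genes mts (-0.61 ± 0.02), Pp1-87B (-0.56 ± 0.02) and Pp2A-29B (-0.20 ± 0.02), and CkIIalpha (-0.35 ± 0.04), the catalytic subunit of casein kinase 2. The casein kinase 1 gene dbt thus rose with the stage, while the catalytic subunit of casein kinase 2 fell by 0.35 on the log2 scale and its regulatory subunit gene CkIIbeta rose by 0.10 ± 0.03.

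Of 20 measured genes of 25 listed for clock input, output and cofactors, 14 were higher in adults and 5 were higher in larvae, against the same 44.9% and 47.8%, and 1, the acetyltransferase gene Tip60, did not pass (-0.05 ± 0.03 on the log2 scale, adjusted p = 0.127, edgeR). The largest difference was that of takeout (to), a clock-controlled gene of feeding and fat body, at 3.51 ± 0.11 on the log2 scale (SE). The potassium channel gene slo followed at 2.33 ± 0.05, the neurofibromin gene Nf1 at 2.10 ± 0.06 and the kinase gene Lk6 at 1.87 ± 0.05. Pdfr, the receptor of the clock neuropeptide PDF, was higher in adults by 1.51 ± 0.05. Rack1 (-1.16 ± 0.04) and qsm, quasimodo, a light-input factor (-0.64 ± 0.06), were the genes highest in larvae relative to adults.

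**Figure D2:**
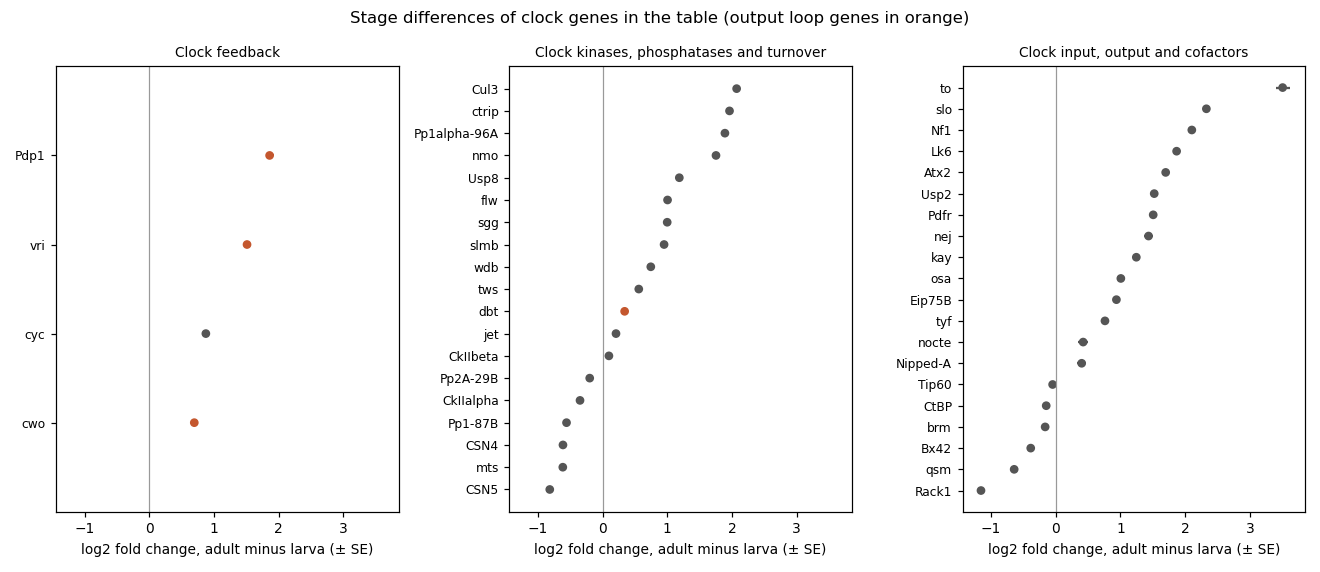
Log2 fold change (adult minus larva) with its SE for the measured genes of the 3 clock lists; vri, Pdp1, cwo and dbt are in orange. In the feedback panel all 4 genes are above 0; dbt, at 0.34, lies in the middle of the kinase list, whose ends are Cul3 at 2.07 and CSN5 at -0.82.

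Lines differed beyond their replicates in cwo, and by edgeR the other 3 genes did not pass. In larvae, the line test gave adjusted p = 0.0140 for cwo, 0.0573 for Pdp1, 0.181 for vri and 0.240 for dbt (edgeR), against 46.6% of all genes called. In adults it gave 0.0041 for cwo, 0.103 for dbt, 0.104 for Pdp1 and 0.162 for vri (edgeR), against 68.5% of all genes called. DESeq2's likelihood ratio test called more. In larvae Pdp1 (adjusted p = 0.0026) and vri (0.0388) also passed, against 67% of all genes, and in adults Pdp1 (0.0202), dbt (0.0253) and vri (0.0479), against 78.3%.

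The share of variance of log2 CPM that lay between lines, rather than between the replicates of a line, was 0.420 ± 0.125 (jackknife SE, n = 39 lines) for larval cwo and 0.376 ± 0.0952 (n = 41 lines) for adult cwo. For vri the share was 0.142 ± 0.182 in larvae and 0.122 ± 0.166 in adults, for Pdp1 0.255 ± 0.127 and 0.138 ± 0.187, and for dbt 0.190 ± 0.168 and 0.277 ± 0.145. The median over all genes was 0.270 in larvae and 0.390 in adults. The SEs of vri at both stages and of Pdp1 in adults exceed their shares.

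The larval line means of cwo ran from 41.7 CPM in DGRP360 to 76.8 CPM in DGRP491, a line with 1 larval library, and the adult ones from 61.1 CPM in DGRP59 to 131 CPM in DGRP911. For vri, larval line means ran from 26.3 CPM in DGRP235 to 89.7 CPM in DGRP217 and adult ones from 92.6 CPM in DGRP801 to 245 CPM in DGRP367. For Pdp1 they ran from 49.4 CPM in DGRP911 to 139 CPM in DGRP356 in larvae and from 204 CPM in DGRP59 to 505 CPM in DGRP796 in adults. The means of dbt ran from 51.1 CPM in DGRP235 to 95.5 CPM in DGRP801 in larvae and from 73.6 CPM in DGRP882 to 103 CPM in DGRP897 in adults. In the order of line means, the replicate values of 38 to 40 of the 40 neighbouring pairs of lines overlapped, for each gene and stage, so the order within these ranges is not resolved.

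The adult line test changed with roX1 in the fit. The noncoding RNA roX1 is made in males as part of the dosage compensation complex. Its adult level, from 247 to 1472 CPM, was taken here as a measure of the share of males in a pool, which was not tested. In the adult replicate differences described below, Pdp1 had r = 0.873 with roX1 and 0.868 with a sum of 7 pan-neuronal markers. With a sum of 4 testis markers it had r = -0.230. The level of roX1 was not itself compared with these sums. With the log2 level of roX1 as a covariate, adult line differences were called for Pdp1 (adjusted p = 2.0e-08, edgeR) and dbt (0.0485), and cwo kept its call, against 81.1% of all genes. Without the mismatched libraries, larval Pdp1 was called (adjusted p = 0.0069, edgeR, against 47.8% of all genes). With library pool as a factor, Pdp1 passed in larvae (adjusted p = 0.0483, edgeR, against 30.9% of all genes) and in adults (0.0295, against 70.7%).

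The stage difference of cwo itself differed between lines (line-by-stage interaction, adjusted p = 0.0255, edgeR, against 43.1% of all genes called). Its adult level was between 0.910 times the larval one, in DGRP59, and 2.58 times, in DGRP306, with a median of 1.65 over the 41 lines. The same test gave adjusted p = 0.117 for dbt, 0.129 for Pdp1 and 0.296 for vri. Without the mismatched libraries, Pdp1 passed as well (adjusted p = 0.0406, edgeR, against 44.7% of all genes).

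A line's level in larvae was not detectably related to its level in adults for any of the 4 genes. Over 41 line means of log2 CPM, Pearson's r was 0.192 for cwo (permutation p = 0.228, Spearman's rank coefficient rs 0.177, p = 0.268), 0.118 for vri (p = 0.462, rs 0.154, p = 0.337), 0.0527 for Pdp1 (p = 0.746, rs 0.0470, p = 0.771) and -0.0133 for dbt (p = 0.935, rs -0.0183, p = 0.910). Adjusted over all genes, these p-values were 0.438, 0.664, 0.863 and 0.967 (two-sided permutation tests of the lines). With the 2 lines most distant in larval level left out, r was 0.0926 for cwo, 0.182 for vri, 0.167 for Pdp1 and -0.0130 for dbt. Among all genes the median r was 0.194 and 17.2% were called, so the r of cwo stood at the middle of all genes and that of dbt at the 14.7th percentile.

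**Figure D3:**
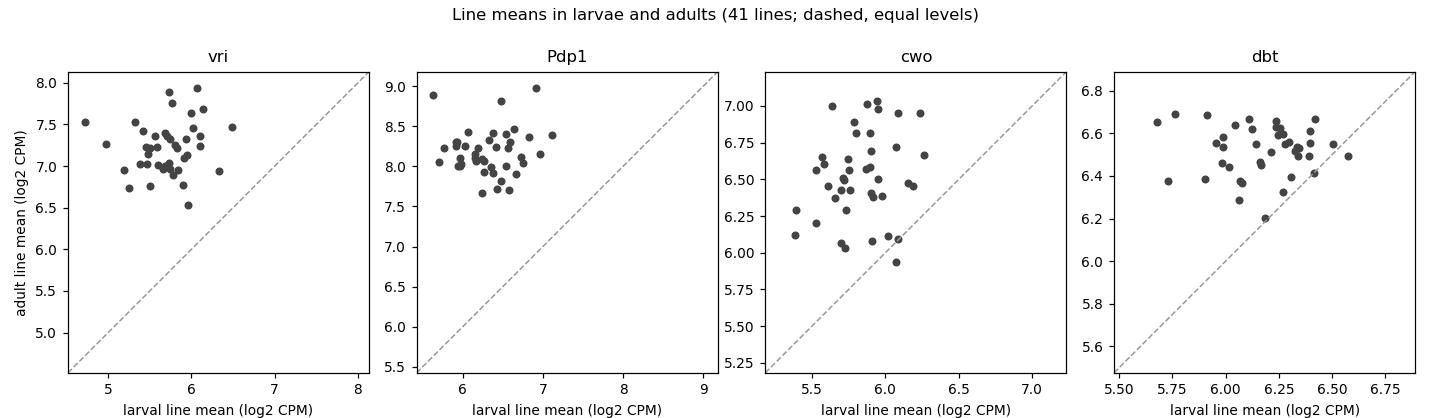
Mean log2 CPM of each of 41 lines in larvae (x) and adults (y) for the 4 genes; the dashed line marks equal levels. The points of vri and Pdp1 lie wholly above the line and form clouds without a visible slope, and those of dbt lie close to it.

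The replicates of a line differed more for vri and Pdp1 than for most genes. The within-line SD of log2 CPM was 0.43 for vri and 0.38 for Pdp1 in larvae (n = 39 pairs), at the 90.1st and 84.4th percentile of all genes, and 0.39 and 0.35 in adults (n = 41 pairs), at the 95.2nd and 92.5th percentile. For cwo it was 0.19 in larvae, the 16.1st percentile, and 0.28 in adults, the 82.3rd. For dbt it was 0.24 in larvae, the 38.3rd percentile, and 0.12 in adults, the 6.20th. The median over all genes was 0.26 in larvae and 0.20 in adults.

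Single pairs show the size of this spread. Adult vri stood at 110 CPM in DGRP783 replicate 1 and at 310 CPM in replicate 2, a 2.81-fold difference, and larval vri at 100 CPM and 37.3 CPM in DGRP142, a 2.68-fold difference. Adult Pdp1 stood at 114 CPM in DGRP59 replicate 1 and 362 CPM in replicate 2, 3.16-fold apart. The replicates differed over 2-fold in 4 lines for vri at each stage, in 2 lines for Pdp1 at each stage, in 1 larval line for dbt and in none for cwo. The widest larval pairs of Pdp1 (DGRP911, 2.66-fold), cwo (DGRP882, 1.56-fold) and dbt (DGRP897, 2.14-fold) each held a mismatched library. Without the 3 lines that hold these, the larval within-line SD was 0.44 for vri, 0.34 for Pdp1, 0.18 for cwo and 0.21 for dbt, at the 91.9th, 78.7th, 13.7th and 24.6th percentile.

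**Figure D4:**
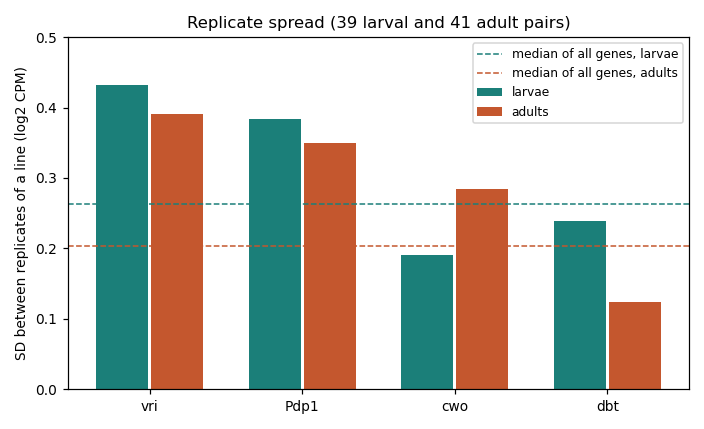
Within-line SD of log2 CPM between replicates for each gene in larvae (39 pairs) and adults (41 pairs), with the median of all genes dashed. The bars of vri and Pdp1 stand above the medians at both stages, cwo only in adults, and dbt lies below both.

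Between the stages, the replicate spread differed in dbt by the test over all genes. The mean absolute log2 difference between replicates of dbt was 0.25 at the larval and 0.14 at the adult stage, larger in larvae in 23 of 39 lines (difference 0.11, adjusted p = 0.0400, permutation of stages within lines). Of all genes, 24.4% had a larger spread in larvae and 0.391% a larger one in adults. Without the mismatched libraries the difference was 0.0875 and the adjusted p 0.0969. The mean absolute difference of cwo was 0.22 in larvae and 0.31 in adults, larger in adults in 27 of 39 lines, and did not pass (adjusted p = 0.173), nor did those of Pdp1 (adjusted p = 0.390) and vri (adjusted p = 0.502).

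The difference between the replicates of a line, in which line and stage cancel, was then compared between genes over 39 larval and 41 adult lines. Pdp1 and cwo moved together at both stages. In adults their replicate differences had r = 0.719 (two-sided permutation p = 1e-05, the smallest that 100000 permutations give) and rs = 0.715 (permutation p = 1e-05), with adjusted p = 1.7e-04 over all genes, r = 0.706 without the 2 farthest lines, and the same sign in 31 of 41 lines. In larvae they had r = 0.542 (permutation p = 4.0e-04, adjusted p = 0.0358) and rs = 0.605 (permutation p = 7.0e-05), with the same sign in 31 of 39 lines, r = 0.641 without the 2 farthest lines and 0.623 without the mismatched libraries. The pool of a line with more Pdp1 was in most lines also the one with more cwo. With the means of the library pools named in the labels removed, the larval r was 0.294 and no longer passed (adjusted p = 0.328).

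vri moved with Pdp1 only in part. In adults r was 0.457 (permutation p = 0.0027) and rs 0.255 (permutation p = 0.107), with the same sign in 27 of 41 lines and r = 0.343 without the 2 farthest lines. Its adjusted p was 0.0156 among all genes compared with Pdp1 and 0.397 among all genes compared with vri, so the call depends on the family. Leaving out DGRP59 or DGRP783 alone each gave r = 0.362. In larvae r was -0.0264 (permutation p = 0.873) and rs -0.0166 (permutation p = 0.919), and a relation was not detectable.

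The remaining pairs did not pass in both families of any stage. Replicate differences of vri and cwo had r = 0.143 in larvae (permutation p = 0.384) and 0.243 in adults (permutation p = 0.127). Those of vri and dbt had r = 0.352 in larvae (permutation p = 0.0283, adjusted p = 0.130), 0.479 without the mismatched libraries (adjusted p = 0.0392), and -0.183 in adults (permutation p = 0.252). Pdp1 and dbt had r = 0.287 in larvae (permutation p = 0.0776) and 0.1002 in adults (permutation p = 0.531), where 1 line decided the value: without DGRP59, whose replicate 1 held the lowest Pdp1 and the highest dbt of all adult libraries, r was 0.505 (adjusted p = 0.0071). For cwo and dbt r was 0.297 in larvae (permutation p = 0.0648). Their adult points fell into 2 clusters, with r = 0.0709 in 32 lines (permutation p = 0.698) and r = -0.268 in 6 lines (exact permutation p = 0.617).

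**Figure D5:**
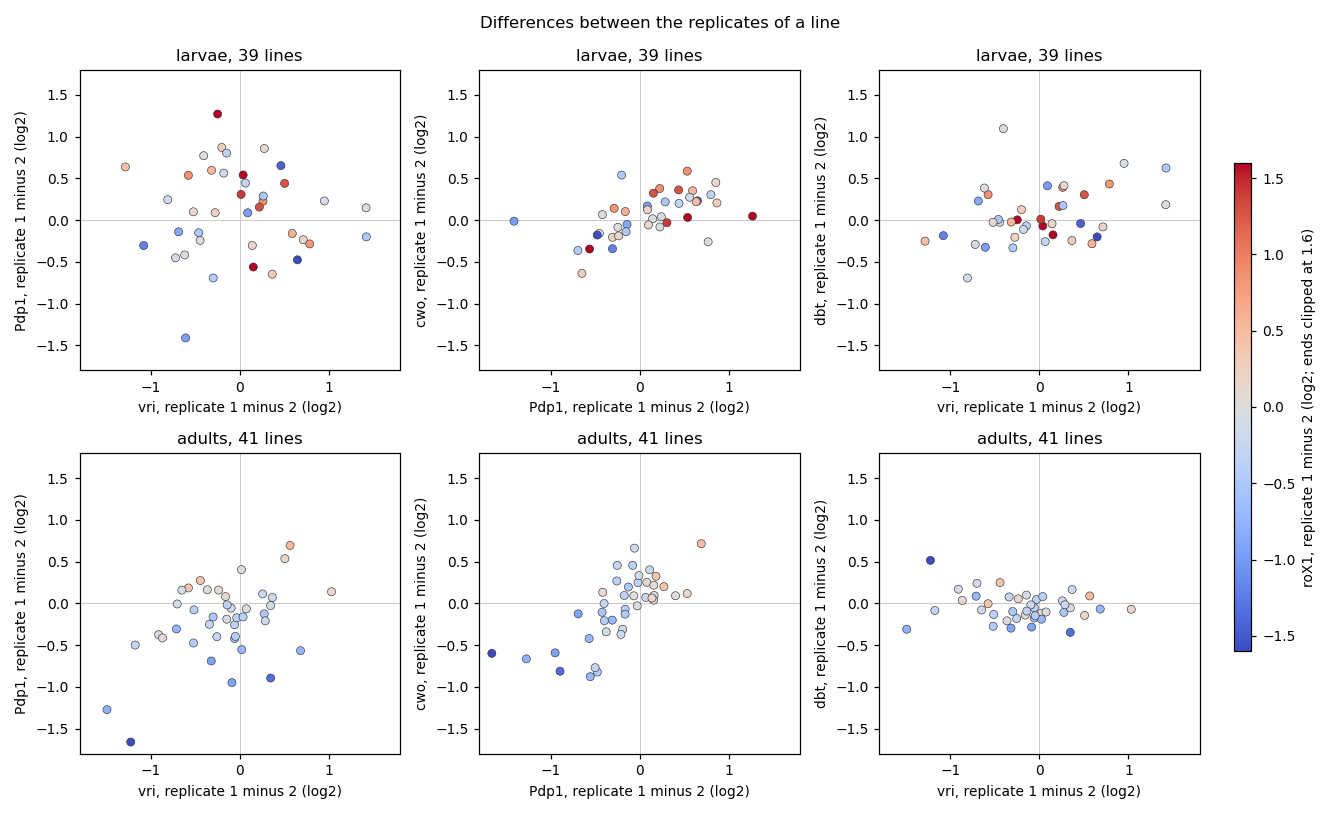
Replicate 1 minus replicate 2 (log2 CPM) of pairs of the genes over lines, in larvae (top) and adults (bottom), coloured by the same difference of roX1. The middle panels show Pdp1 and cwo rising together at both stages. In the lower left and lower middle panels, lines with less Pdp1 in replicate 1 than in replicate 2 are mostly blue. Blue marks lines whose replicate 1 was also lower in roX1 than replicate 2.

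In adults, Pdp1 and cwo also moved with roX1 and with neural markers, and the relations of vri did not pass. The replicate difference of Pdp1 had r = 0.873 with that of roX1 (permutation p = 1e-05, rs 0.830, adjusted p = 1.1e-04 over 64 relations of the 4 genes to marker sums, roX1 and depth), and that of cwo r = 0.641 (permutation p = 1e-05, rs 0.595, adjusted p = 1.1e-04). For vri r was 0.213 (permutation p = 0.180, adjusted p = 0.397) and for dbt 0.169 (permutation p = 0.290, adjusted p = 0.530), or 0.561 without DGRP59, whose replicate 1 had 247 CPM of roX1, the lowest adult value, against 748 CPM in replicate 2. The summed level of 7 measured pan-neuronal markers of 10 listed, from 950 to 3235 CPM in adult libraries and from 361 to 766 CPM in larval ones, had r = 0.868 with Pdp1 (permutation p = 1e-05, rs 0.873), 0.695 with cwo (permutation p = 1e-05, rs 0.673) and 0.0915 with vri (permutation p = 0.566, rs -0.0033). The sum of 5 measured photoreceptor markers of 16 listed, 505 to 1184 CPM in adults, had r = 0.820 with Pdp1 (permutation p = 1e-05, rs 0.833). Of its 5 genes, 4 had a positive r with Pdp1 that passed over all genes, and cpb, a capping protein gene, a negative one (r = -0.380, adjusted p = 0.0465). For dbt, r was 0.270 with the pan-neuronal sum (permutation p = 0.0887, adjusted p = 0.247). With the photoreceptor sum it was 0.364 (permutation p = 0.0198, adjusted p = 0.0903), and rs was 0.38 for each. Neither passed over the 64 relations, but without the 2 farthest lines r was 0.602 and 0.601. Each rank coefficient given so far in this comparison for Pdp1 and cwo had a permutation p of 7e-05 or less. Pdp1 also passed with the sums of 7 fat body markers (4576 to 15250 CPM in adults; r = 0.465, permutation p = 0.0021, adjusted p = 0.0189) and of 7 glial markers (1247 to 2185 CPM; r = 0.449, permutation p = 0.0044, adjusted p = 0.0312), and dbt with the glial sum (r = -0.438, permutation p = 0.0055, adjusted p = 0.0353). These rest on few lines: without the 2 farthest lines r was 0.180, 0.155 and -0.156, and the rank coefficients were 0.249 (permutation p = 0.115), 0.303 (permutation p = 0.0539) and -0.258 (permutation p = 0.103). The sum of 4 measured testis markers of 20 listed had r = -0.230 with Pdp1 (permutation p = 0.146) and -0.122 with cwo (permutation p = 0.448). For 6 measured ovary and germline markers of 19 listed, r was 0.109 with Pdp1 (permutation p = 0.497) and 0.174 with cwo (permutation p = 0.278). None of these passed over the 64 relations. No measured marker was at 0 in any library, since the table holds none such.

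With roX1 regressed out of every gene, the adult r of Pdp1 and cwo was 0.426 and no longer passed (adjusted p = 1.00 among genes compared with Pdp1, 0.119 among those compared with cwo), and that of vri and Pdp1 was 0.568 (permutation p = 1.0e-04), with adjusted p = 0.389 among genes compared with Pdp1 and 0.0570 among those compared with vri. In larvae, roX1 changed these values little: Pdp1 and cwo had r = 0.533 with it regressed out. The larval replicate difference of Pdp1 had r = 0.452 with the sum of 7 measured fat body markers of 16 listed (permutation p = 0.0034, rs 0.442, adjusted p = 0.0270 over the 64 relations). That sum ran from 6619 to 21090 CPM in larval libraries. Of its 7 genes, 1 passed over all genes, Desat1 (r = 0.531, adjusted p = 0.041, permutation test). The gene with the highest larval mean, apolpp (6258 CPM), had r = 0.283 and did not pass, and Mtp (r = -0.183) and bmm (r = -0.0819) were negative.

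The other clock genes were set beside the same replicate differences. In adults, cyc had r = -0.611 with Pdp1 (permutation p = 9e-05, rs -0.518, adjusted p = 0.0011), and -0.0631 with roX1 regressed out. Of 19 genes of the kinase list, 7 passed with a positive and 3 with a negative r to Pdp1, against 15.4% and 15.2% of all genes, and 5 and 2 to cwo, against 16.9% and 10.4%. Of 20 input, output and cofactor genes, 10 passed with a positive and 2 with a negative r to Pdp1, and 13 with a positive one to cwo. With roX1 regressed out, 0 genes of either list passed with Pdp1, against 0% of all genes, and 1 of the cofactors with cwo, against 0.58%. None passed with adult vri, against 0.0809% of all genes in each direction, or 0.162% in either direction with roX1 regressed out.

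The counts of clock genes that passed with dbt moved by at most 1 in each list and direction when roX1 was regressed out. In larvae, its replicate difference had r = 0.662 with that of sgg (permutation p = 1e-05, rs 0.708, adjusted p = 0.0015) and 0.532 with that of wdb, a regulatory subunit of the phosphatase PP2A (permutation p = 4.2e-04, rs 0.633, adjusted p = 0.0140). These were the 2 of 18 other genes of the kinase list that passed, against 4.87% of all genes with a positive r. Of the 20 input, output and cofactor genes 8 passed with a positive r in larvae, among them tyf, a translation factor of period (r = 0.618), and the corepressor gene CtBP (r = 0.592), and Rack1 with a negative one (r = -0.458). In adults 5 of the 18 kinase list genes passed with a positive r, against 15.7% of all genes, among them ctrip (r = 0.548), wdb (r = 0.519) and tws, another PP2A subunit (r = 0.519), as did 8 of the 20 cofactors, with tyf highest (r = 0.658, rs 0.616), and qsm passed with a negative one (r = -0.430, adjusted p = 0.0298). For larval vri, 5 of the 20 cofactors passed with a positive r, against 4.26% of all genes, with the ecdysone-induced nuclear receptor gene Eip75B highest (r = 0.599, rs 0.536), and Rack1 passed with a negative one (r = -0.445, adjusted p = 0.0465). A negative r passed in 4.82% of all genes for larval dbt, 10% for adult dbt and 6.35% for larval vri. Larval cwo also passed with sgg (r = 0.639) and wdb (r = 0.482), 2 of 19 kinase list genes. It passed with 4 of 20 cofactors, against 5.65% of all genes. With larval Pdp1, 0 genes of either list passed with a positive r, against 1.44%.

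The genes whose replicate differences were most like those of each member were then named, over all 7413 other genes, as the 5 with the highest and the 3 with the lowest r among genes of at least 10 CPM. Each of these 64 values had a permutation p of 5e-05 or less, which follows in part from their choice as the most extreme r. Each kept its sign without the 2 lines farthest from the member's median, where the smallest in size was r = -0.468, of adult vri and Hsp83 (adjusted p = 0.380, permutation test). Adult vri had few: 6 genes passed with a positive r (0.0809% of genes tested) and 6 with a negative one (0.0809%), and with roX1 regressed out 12 passed. Among the positive ones were gol (goliath, a membrane ubiquitin ligase; r = 0.717, rs 0.580), Reck, an inhibitor of matrix metalloproteases (r = 0.665, rs 0.701), the POU-domain gene nub (r = 0.629, rs 0.678), the potassium channel gene Irk1 (r = 0.582) and the inositol phosphate kinase gene IP3K2 (r = 0.569). The negative ones held the chaperone genes DnaJ-1 (r = -0.634, rs -0.678) and Hsp83 (r = -0.605, rs -0.554), the RNA-binding protein gene nito (r = -0.616), and bip1, Meics and CG1416, with r from -0.620 to -0.582. Each of the 12 had a permutation p of 7e-05 or less, and none is in the clock lists. The set is sensitive to single lines: 4 genes passed without DGRP59, 6 without DGRP783 and 2 without the 2 farthest lines.

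Adult Pdp1 had 1144 genes with a positive r that passed (15.4%) and 1125 with a negative one (15.2%). The most like were cpx, the synaptic protein complexin and one of the pan-neuronal markers (r = 0.904, rs 0.858), the homeobox gene hth (r = 0.899, rs 0.872), the sodium pump subunit gene nrv3 (r = 0.897, rs 0.835), CG31221 (r = 0.888, rs 0.859) and the G protein gene Galphao (r = 0.883, rs 0.843). The lowest were twf (twinfilin, r = -0.737), the transcription factor gene M1BP (r = -0.734) and the chaperonin gene CCT8 (r = -0.716). With roX1 regressed out, 0 genes passed the permutation test and 269 had an unadjusted p under 0.05, and r with cpx was 0.490. Its highest r was then that with gol (0.659, adjusted p = 0.0741), followed by vri.

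Adult cwo had 1256 genes with a positive r that passed (16.9%) and 773 with a negative one (10.4%). The most like was Kr-h1, a transcription factor of the juvenile hormone response (r = 0.780, rs 0.699), then S6k, the kinase of ribosomal protein S6 (r = 0.769, rs 0.764), the glycosyltransferase gene Pgant2 (r = 0.750, rs 0.738) and the polarity kinase gene aPKC (r = 0.747, rs 0.758). The RNA-binding protein gene how was also among the first 5, but its points formed clusters within which r was 0.195 in 10 lines and 0.30 in 21. Among the lowest were 128up (r = -0.652) and the thioredoxin-like gene Txl (r = -0.631). With roX1 regressed out 43 genes passed (0.58%), and Kr-h1 kept r = 0.736.

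For adult dbt, 1163 genes passed with a positive r (15.7%) and 744 with a negative one (10%), 1907 in all, and 1981 passed with roX1 regressed out (26.7%). The most like were CG10979 (r = 0.819, rs 0.764), the histone H3K9 methyltransferase gene G9a (r = 0.816, rs 0.734), the kinetochore gene rod (r = 0.806, rs 0.691), the chromatin remodeller gene polybromo (r = 0.791, rs 0.760) and the nuclear pore gene Gp210 (r = 0.767, rs 0.728). The lowest were CG7382 (r = -0.684), the glycine cleavage gene ppl (r = -0.682) and CG5254 (r = -0.666).

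In larvae, 316 genes passed with a positive r to vri (4.26%) and 471 with a negative one (6.35%), 787 in all, and 103 passed without the 2 farthest lines. The most like were the ring canal gene kel (r = 0.678, rs 0.624), the ecdysone receptor gene EcR (r = 0.659, rs 0.530) and 3 genes of membrane traffic, g (garnet, of the AP-3 complex; r = 0.657), the sorting nexin gene Snx27 (r = 0.656) and the epsin gene lqf (r = 0.650). The lowest were Ugt317A1 (r = -0.654), the mitochondrial ribosomal gene mRpL37 (r = -0.653) and CG31259 (r = -0.652).

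Larval Pdp1 had 107 positive (1.44%) and 52 negative genes (0.701%), 159 in all. The count was 454 without the 2 farthest lines, 86 without the mismatched libraries, 76 with pool differences removed and 347 with roX1 regressed out. The most like were CG13398 (r = 0.738, rs 0.702), S6k (r = 0.737, rs 0.707), the RNA localization gene lost (r = 0.736, rs 0.746), the NAD synthetase gene Nadsyn (r = 0.683, rs 0.702) and the proton pump gene Vha16-1 (r = 0.679, rs 0.673), and the lowest the peptidoglycan receptor gene PGRP-SA (r = -0.762, rs -0.731), CG11590 (r = -0.699) and Dph2 (r = -0.660). S6k is thus among the 5 most like genes of larval Pdp1 and of adult cwo. Larval cwo had 419 positive (5.65%) and 130 negative genes (1.75%), led by IA-2, a protein of dense-core vesicles (r = 0.783, rs 0.712), the RNA-binding protein gene larp (r = 0.780, rs 0.714), the forkhead gene CHES-1-like (r = 0.750), the ubiquitin ligase gene mura (r = 0.739) and CG42674 (r = 0.731), and at the other end Pyroxd1 (r = -0.657), CG13926 (r = -0.638) and the glutaredoxin gene Grx3 (r = -0.626). Larval cwo had 549 such genes in all, and the count was 144 without the 2 farthest lines, 264 without the mismatched libraries and 99 with pool differences removed.

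Larval dbt had 361 positive (4.87%) and 357 negative genes (4.82%). Among the most like were Hrb27C, an RNA-binding protein (r = 0.720 in the larger cluster of 31 lines), the Ski-family gene Snoo (r = 0.739, rs 0.799), the repressor gene cic (r = 0.717, rs 0.693) and the RNA-binding protein gene fus (r = 0.717, rs 0.684). The lowest were the ribosomal protein gene RpL27 (r = -0.757, rs -0.828), the ferritin gene Fer2LCH (r = -0.756, rs -0.655) and the translation initiation gene eIF3h (r = -0.723, rs -0.726). These are 718 genes in all, against 1603 without the mismatched libraries and 1250 without the 2 farthest lines.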

How the data were processed

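Whole-body poly-A RNA of 41 lines at 2 stages was sequenced from stranded libraries, per the labels' protocols. The authors deposited raw counts per gene for 7414 genes in 164 libraries. Reads were trimmed with Trimmomatic, checked with FastQC and aligned with STAR to BDGP6 (dm6), per the submitters' processing notes, and the counting tool and its strand setting are not given in the sources used here. The lowest count in the table is 11, so genes low in any library were not analysed here. Identifiers were paired with symbols through FlyBase names (7349 found), and coordinates come from the Ensembl annotation of BDGP6.

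After 2 identical larval columns were left out, 162 libraries were fitted with edgeR 4.0.16 (quasi-likelihood, TMM factors) in R 4.3.3, with Benjamini-Hochberg adjustment over all genes. The stage fit had line as a block, line differences were fitted within a stage, and the interaction over both. Counts of the members per library ran from 95 to 6635. Line means, replicate spread and replicate differences used log2 CPM (prior count 2) with 100000 two-sided permutations. Lines were called clusters when single linkage at 0.15 of each range left 2 or more groups of at least 6. Alternatives were DESeq2 1.42.0, its size factors, roX1 as covariate, library pool, a replicate block, a prior count of 0.5, a minimum mean of 5 CPM, and libraries left out. The edgeR stage, line and interaction tests and the permutation tests of r and of replicate spread were tested on simulated data. The 2-fold test, DESeq2, the rank coefficients and the tests within clusters were not. The genes, taken by name, and the lists were chosen with earlier results of these data known. Genes outside the lists were named by their rank of r, 5 highest and 3 lowest, and further genes that passed with adult vri were named after their values were seen; a few genes of these ranks are not reported here. Intervals between replicates cover pools of animals from separate vials, whose hour of freezing the labels do not give. Except in DGRP59 larvae, they also cover different library pools.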

Additional observations from a re-analysis of the deposited data

Results flagged for a closer look

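The stage difference of cwo differed between the 41 lines by the test of the difference itself (line-by-stage interaction, adjusted p = 0.0255, edgeR's quasi-likelihood test over all genes), with adult over larval folds of 0.910 in DGRP59 to 2.58 in DGRP306. It is the only one of the 4 genes for which this test passed with all 162 libraries, and 43.1% of all genes passed it.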

How the results depend on the processing

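The stage differences of the 4 genes, tested without a fold threshold, kept their direction and call under all 9 alternatives each. None of these could take library pool into account, since no pool held both stages. The line and interaction calls of cwo kept theirs under all of their alternatives. Line tests changed for the other genes. In larvae, Pdp1 passed without the mismatched libraries (adjusted p = 0.0069), by DESeq2 (0.0026) and with library pool as a factor (0.0483), which called 2288 genes, and vri by DESeq2 (0.0388). In adults, Pdp1 passed with roX1 as a covariate (2.0e-08), by DESeq2 (0.0202) and with pool (0.0295), dbt with roX1 (0.0485) and by DESeq2 (0.0253), and vri by DESeq2 (0.0479). The interaction of Pdp1 passed without the mismatched libraries (0.0406). Line and interaction tests leave no residual degrees of freedom without a replicate.

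Same-numbered larval and adult replicates of a line did not deviate together (median r 0.0492 over 39 lines, above 0.1 in 14), so numbers were not taken as pairs. With the replicate block, adult line differences of Pdp1 passed (adjusted p = 0.0283, against 75.5% of all genes), and no other call of the 4 genes changed.

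None of the cross-stage r values of the 4 genes passed in any setting. That of dbt was 6.2e-04 with DESeq2 size factors, 0.105 without the mismatched libraries and 0.0067 with roX1 regressed out. Without replicate 1 or 2, r was -0.138 or 0.111 for vri, 0.229 or -0.134 for Pdp1, 0.268 or -0.132 for cwo and 0.109 or 0.0200 for dbt, and 804 or 634 genes were called. The spread difference of dbt was 0.0875 without the mismatched libraries and did not pass.

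For larval replicate differences, the r of vri and Pdp1 was 4.3e-04 with DESeq2 size factors and 0.0066 without the 2 farthest lines, that of vri and dbt 0.479 without the mismatched libraries, and that of Pdp1 and cwo 0.294 with pool differences removed. The genes called numbered 103 with vri and 454, 144 and 1250 with Pdp1, cwo and dbt without the 2 farthest lines, 86, 264 and 1603 without the mismatched libraries, 76 with Pdp1 and 99 with cwo with pool differences removed, and 347 with Pdp1 with roX1 regressed out. In adults, roX1 regressed out left 0 genes with Pdp1 (269 at an unadjusted permutation p under 0.05) and 43 with cwo, and r = 0.426 for Pdp1 and cwo and -0.0976 for Pdp1 and dbt. Pool differences removed left 1314 with Pdp1 and 1256 with cwo, and leaving out the 2 farthest lines left 2 with vri and r = 0.444 for Pdp1 and dbt. The 2 settings chosen after seeing the data, without DGRP59 and without DGRP783, called 4 and 6 genes with vri; without DGRP59, r was 0.505 for Pdp1 and dbt and 0.478 for cwo and dbt, which then passed. The causes were not tested. With 2 libraries per line and stage, and counts of the 4 genes as low as 95 in a library, single lines can be told apart only coarsely.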
